A study of Homo sapiens with 32 samples.

Results

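The 10 long non-coding RNA genes SNHG1, SNHG3, SNHG5, SNHG6, SNHG7, SNHG8, SNHG12, SNHG15, SNHG16 and GAS5 carry small nucleolar RNAs (snoRNAs) in their introns. They were taken by name from 55432 annotated genes, and every crosslink tag on their own strand within their bodies was counted. The tags come from iCLIP, in which UV light crosslinks a protein to RNA in living cells, the protein is immunoprecipitated, and reverse transcription stops beside the crosslinked base. A tag is 1 cDNA molecule assigned to 1 base. The protein was Alyref or Chtop, both subunits of the TREX mRNA export complex, or Nxf1, the mRNA export receptor. Each was FLAG-tagged, and all 4 groups were immunoprecipitated with an anti-FLAG antibody. The stable lines were made in FlpIn-293 cells (HEK293T by the sample labels), a cultured line of human kidney origin whose genome carries a site for inserting a transgene. Tetracycline was given over 48 h to switch the transgene on, at 5 ng/mL in the Nxf1 line and 10 ng/mL in the other factor lines. The Control line carried the FLAG construct with no export factor. The sources used here do not say whether a line is 1 clone, and the tagged protein is made beside the endogenous one. The 32 lane runs, 8 per group, belong to 12 libraries, 3 replicates per group. Nothing in the labels says that replicates came from separate cultures, so p-values measure the spread between these libraries, which may be technical.

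snoRNAs guide ribose methylation (box C/D class) or pseudouridylation (box H/ACA class) of ribosomal and spliceosomal RNA. In human cells most are cut out of the introns of a host gene after splicing, while the joined host exons leave as a separate RNA with little coding potential. Several hosts, GAS5 and SNHG1 among them, start with a terminal oligopyrimidine tract, the start element that they share with ribosomal protein mRNAs, and their spliced RNAs are degraded by nonsense-mediated decay once translated. Intron tags of such a gene touch the precursor, the excised intron or the snoRNA, while exon tags can touch the spliced RNA or the precursor, and the files do not separate these.

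The genes differ widely in build. Coordinates are GRCh37 (hg19) with GENCODE release 44 mapped to that build. SNHG6, a host of SNORD87, lies at chr8:67832796-67838633 on the minus strand and had the fewest tags, 40 over the 12 libraries. SNHG8 (chr4:119199858-119206471, plus strand, host of SNORA24) held 70 tags and SNHG15 (chr7:45022618-45026560, minus strand, host of SNORA9) 118. SNHG5 (chr6:86360209-86388650, minus strand, host of SNORD50A and SNORD50B) held 144, SNHG7 (chr9:139615818-139622636, minus strand, host of SNORA17A and SNORA17B) 156 and SNHG12 (chr1:28905050-28909644, minus strand) 182. SNHG16 (chr17:74553809-74667067, plus strand) held 372. SNHG1 (chr11:62619450-62623425, minus strand) held 398, and RefSeq nests 8 box C/D snoRNAs in it. GAS5 (chr1:173827697-173838020, minus strand) held 402, and RefSeq nests 11 snoRNAs in it. SNHG3 (chr1:28832492-28837404, plus strand, host of SNORA73A and SNORA73B) held the most tags, 510, and lies inside the body of RCC1 on the same strand, so that none of its tags, exonic or intronic, can be told apart from those of RCC1 RNA. Of the 23 Alyref exon tags of SNHG5, 22 also lay in another annotated gene, and the exon tags of the other 8 hosts lay in 1 gene only for Alyref and Chtop. Exons here are those of the canonical transcript, and the rest of the body is called intron. The annotated bodies of SNHG16 (113259 nt) and SNHG5 (28442 nt) include rare distant exons, and the canonical GAS5 transcript uses a distant last exon, so that for these genes part of the usual exon sequence falls in "intron".

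Depth sets how much can be said. Replicates 1, 2 and 3 held 81307, 631704 and 603291 tags for Alyref and 47052, 538844 and 429573 for Chtop. For Nxf1 they held 8134, 119191 and 179346, and for the Control 7017, 46628 and 36978. Of the 2729065 tags, 2392 lay in the 10 genes. Levels are given as CPM, the tags of a library scaled to a common total. A count of 0 in a gene allows up to 428 CPM in Control 1 and 369 in Nxf1 1, against 4.75 in Alyref 2, and this limit covers counting error only. Of the epithelial and kidney line genes checked, KRT8 had 74 tags, KRT18 18, VIM 227 and CDH2 215, while of the markers of other cell types ALB had 1 tag, HBB 12 and PTPRC 3, with 0 for APOA1, CD3E and INS. Tags depend on binding as well as expression, so this shows presence only, and less RNA and less binding cannot be told apart in any value below.

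The 10 genes together had a CPM of 726, 1026 and 1051 in Alyref, 553, 856 and 426 in Chtop, 861, 940 and 619 in Nxf1, and 570, 2531 and 784 in the Control. Control 2 stood apart, with 118 of the 151 Control tags in these genes, and it weighs on every comparison with the Control below. The other Control libraries lay within the range of the factor libraries.

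By count, tags at the 5′ ends of the hosts came mostly from Alyref, the group with the most tags in all. For each gene, the base shared as start by the largest number of annotated isoforms was taken as its start, and a window of 10 nt before and 60 nt from that base on was read. In the sequences below, written 5′ to 3′ on the RNA strand from the GRCh37 genome, capitals mark bases with at least 1 Alyref tag. A majority of the isoforms start at that base in 3 of the 10 genes, GAS5 (50 of 91, chr1:173837127), SNHG5 (61 of 89) and SNHG7 (6 of 10), against 25 of 80 in SNHG1, 4 of 19 in SNHG12, 5 of 18 in SNHG16 and 2 of 14 in SNHG15.
GAS5, chr1:173837068-173837137: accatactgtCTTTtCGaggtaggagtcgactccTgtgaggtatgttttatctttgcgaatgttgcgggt
SNHG1, chr11:62623298-62623367: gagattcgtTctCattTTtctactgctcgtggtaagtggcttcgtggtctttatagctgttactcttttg
SNHG12, chr1:28908326-28908395: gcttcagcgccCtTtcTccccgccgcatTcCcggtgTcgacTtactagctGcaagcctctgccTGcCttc
SNHG16, chr17:74553838-74553907: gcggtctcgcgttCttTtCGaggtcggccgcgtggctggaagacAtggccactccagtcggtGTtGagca
SNHG15, chr7:45026208-45026277: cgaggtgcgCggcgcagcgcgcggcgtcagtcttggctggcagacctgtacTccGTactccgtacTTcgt

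In GAS5, 17 Alyref tags lay in the window (4, 4 and 9 in replicates 1, 2 and 3), and 11 of them lay on the first base itself, a C at the head of a pyrimidine run. No Chtop, Nxf1 or Control tag lay in the GAS5 window. SNHG12 had 13 Alyref tags there, SNHG15 and SNHG16 had 8 each, and SNHG1 had 7. All 10 genes had an Alyref tag in their window, 6 had a Chtop tag, 5 an Nxf1 tag and 0 a Control tag. These counts are not scaled to depth.

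Summed over the 10 genes, the window held 72 of 588 Alyref exon or window tags, 12.2% (95% Wilson interval 9.84 to 15.1). Chtop had 10 of 189, 5.29% (2.90 to 9.46), and Nxf1 7 of 55, 12.7% (6.30 to 24.0). The Control had 0 of 16, which allows a share of up to 19.4%. In all other genes the same window took 2.86% of Alyref tags, 1.16% of Chtop tags, 2.65% of Nxf1 tags and 3.51% of Control tags, although it made up 3.28% of the exon or window sequence of the members and 3.56% of that of the other genes. Pooled over genes and libraries, the members' window share was above that of other genes for all 3 factors. None of the 3 factor intervals included the value of the other genes, but these intervals cover counting error only. All 7 Nxf1 window tags came from Nxf1 2. Of the 10 Chtop window tags 4 lay in SNHG5, where 25 of 26 Chtop exon tags also lay in another gene. Neither this window nor the narrower stretch read next was among the planned readings. Next to the start, Alyref and Chtop differed in tags pooled over genes and libraries. From 2 nt before to 7 nt after the first base there were 34 Alyref tags (5.78% of 588, interval 4.17 to 7.97), 0 Chtop tags (up to 1.99% of 189), 1 Nxf1 tag (1.82% of 55, 0.322 to 9.61) and 0 Control tags. The Nxf1 and Control intervals included the Alyref share. GAS5 gave 16 of the 34 Alyref tags and SNHG1 7, while SNHG5 and SNHG8 gave 0. Without GAS5, an alternative added after the data were seen, the Alyref share was 3.64% of 495 (2.31 to 5.67) and Chtop had 0 of 181 (up to 2.08%). The same stretch held 0.534% of Alyref tags and 0.200% of Chtop tags in the other genes. SNHG3, whose 3 isoforms all start at different bases, entered with 1 window tag. Reverse transcription that runs to the 5′ end of an RNA would leave a tag on the base before that end, which is also in this stretch. On the base before the start used here Alyref had 2 tags in SNHG1 and 1 in SNHG15, against 11 on the first base of GAS5. Where the RNAs in these cells start was not tested, so both origins cannot be told apart in these files.

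**Figure D1:**
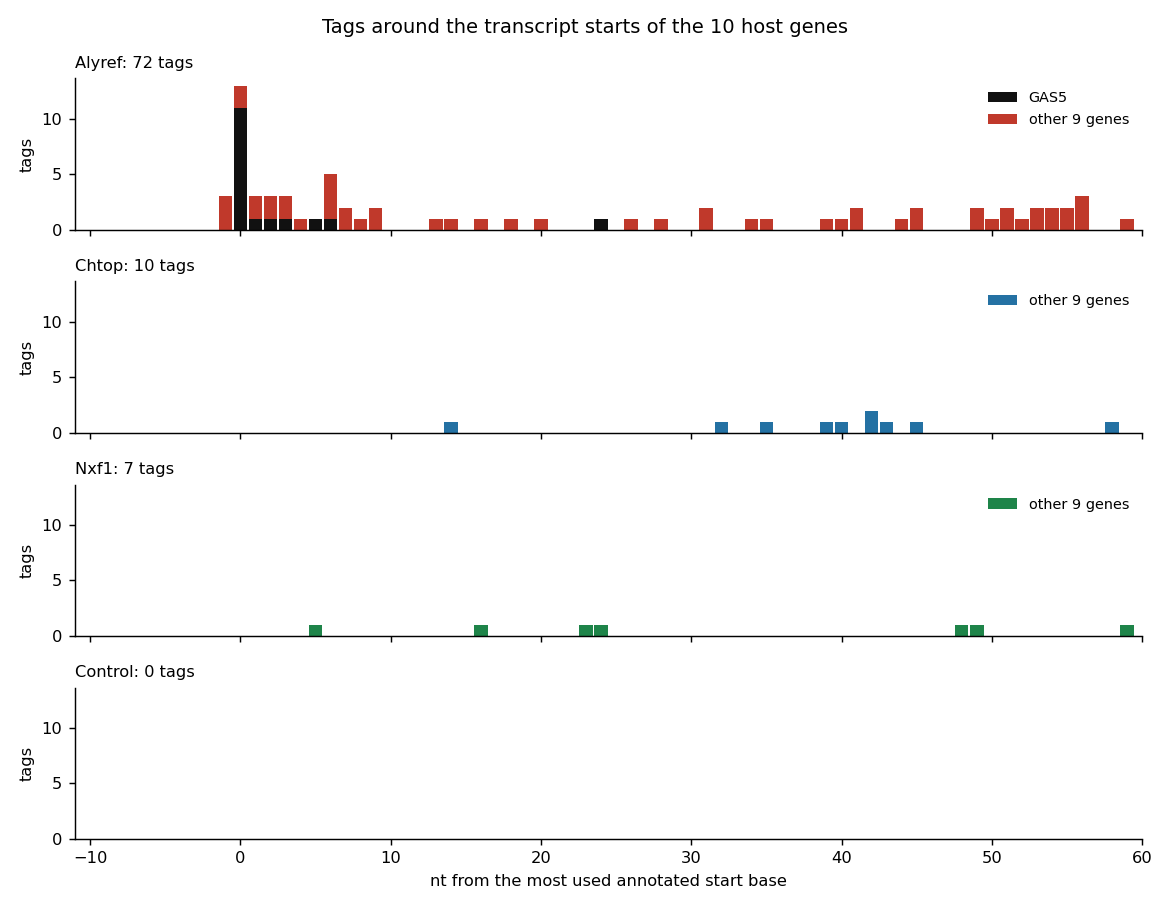
Tags (vertical axis, number per base) by distance in nt from the most used annotated start base (horizontal axis), summed over the 10 genes and 3 libraries of each group, with GAS5 in black. Of the 72 Alyref tags 13 lie on the first base, 11 of them in GAS5, while no Chtop tag lies there and the Control panel is empty.

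Canonical host exons had the highest mean tag level in Alyref. Summed over the 10 genes, Alyref had an exon CPM of 429 ± 34.4 (SD, n = 3), Chtop 188 ± 8.19, Nxf1 137 ± 158 and the Control 158 ± 113. The Alyref and Chtop libraries did not overlap, with 394, 462 and 431 against 191, 178 and 193. Nxf1 (0, 310 and 100) and the Control (143, 279 and 54.1) lay on 55 and 16 exon tags in all and spread too widely to be placed relative to Chtop. No test was made of this sum, and its CPM was read for canonical exons only. With exons of all isoforms, 79.7% of the Control 2 tags were exonic, in a library with a CPM of 2531 in the 10 genes. The order of the groups is thus given for canonical exons alone.

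GAS5, whose exons form an RNA known as a growth arrest transcript and a decoy of the glucocorticoid receptor, had the highest Alyref level per length of canonical exon, an exon CPM per kb of 97.9 ± 13.01 (SD, n = 3). SNHG1 followed with 71.0 ± 15.8 and SNHG3 with 55.5 ± 10.0, and neighbours in this order overlapped in their SD ranges. A gap then separated SNHG12 (21.6 ± 8.66) from SNHG3. SNHG15 (15.8 ± 3.11), SNHG5 (14.8 ± 3.69) and SNHG16 (14.2 ± 13.4) lay close together. SNHG7 (5.14 ± 2.29), SNHG6 (4.40 ± 4.83) and SNHG8 (2.36 ± 2.05) were lowest, and SNHG8 has a last exon of 5693 nt that took 12 of its 27 Alyref exon tags. The top of this order rests on the exon definition. Over bases exonic in most isoforms that span them, a reading added after the data were seen, SNHG1 led with 68.9 ± 15.5, GAS5 had 56.4 ± 5.00 and SNHG3 55.5 ± 10.0. There SNHG15 had 34.4 ± 5.28 and SNHG5 6.29 ± 0.932.

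In counts, GAS5 exons had 7, 42 and 44 Alyref tags, 1, 1 and 6 Chtop tags, 0, 3 and 4 Nxf1 tags and 0, 1 and 0 Control tags. In CPM, the Alyref libraries (86.1, 66.5 and 72.9) all lay above the Chtop libraries (21.3, 1.86 and 14.0). The exon share of GAS5 tags was 36.8% in Alyref (interval 31.1 to 42.9), 9.64% in Chtop (4.97 to 17.9), 18.4% in Nxf1 (9.22 to 33.4) and 3.57% in the Control (0.633 to 17.7). Over bases exonic in most isoforms, GAS5 had 114 Alyref, 24 Chtop, 12 Nxf1 and 1 Control exon tags, so that the Chtop count rose from 8 and the gap to Alyref narrowed.

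SNHG1 had 5, 60 and 55 Alyref exon tags, 2, 14 and 17 Chtop tags, 0, 7 and 2 Nxf1 tags and 0, 4 and 0 Control tags. Its exon CPM was 82.5 ± 18.3 in Alyref and 36.0 ± 8.82 in Chtop (SD, n = 3), and the libraries did not overlap. SNHG3 had 12, 69 and 66 Alyref exon tags, 1, 28 and 21 Chtop tags, 0, 8 and 5 Nxf1 tags and 0, 5 and 1 Control tags. Its exon CPM was 122 ± 22.1 in Alyref and 40.7 ± 16.9 in Chtop. Here too every Alyref library lay above every Chtop library, though all of these tags also lie in RCC1.

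The other hosts did not all follow that order. SNHG5 had 2, 12 and 9 Alyref exon tags against 2, 11 and 13 in Chtop, and the CPM overlapped (19.5 ± 4.86 against 31.1 ± 11.1). SNHG15 had 3, 32 and 33 Alyref and 1, 22 and 10 Chtop exon tags, with 0, 7 and 2 in Nxf1 and 1 in the Control. Of its tags, 95.8% in Alyref and 94.3% in Chtop were exonic. SNHG12 had 2, 36 and 24 Alyref exon tags and 1, 9 and 7 in Chtop. SNHG16 had only 13 of 181 Alyref tags in canonical exons, but 76 in bases exonic in most isoforms, where Chtop had 78 of its 136 tags, Nxf1 20 of 41 and the Control 0 of 14. SNHG7 had 16 Alyref exon tags, SNHG6 15 and SNHG8 27, and their Chtop exon tags numbered 3, 2 and 11.

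**Figure D2:**
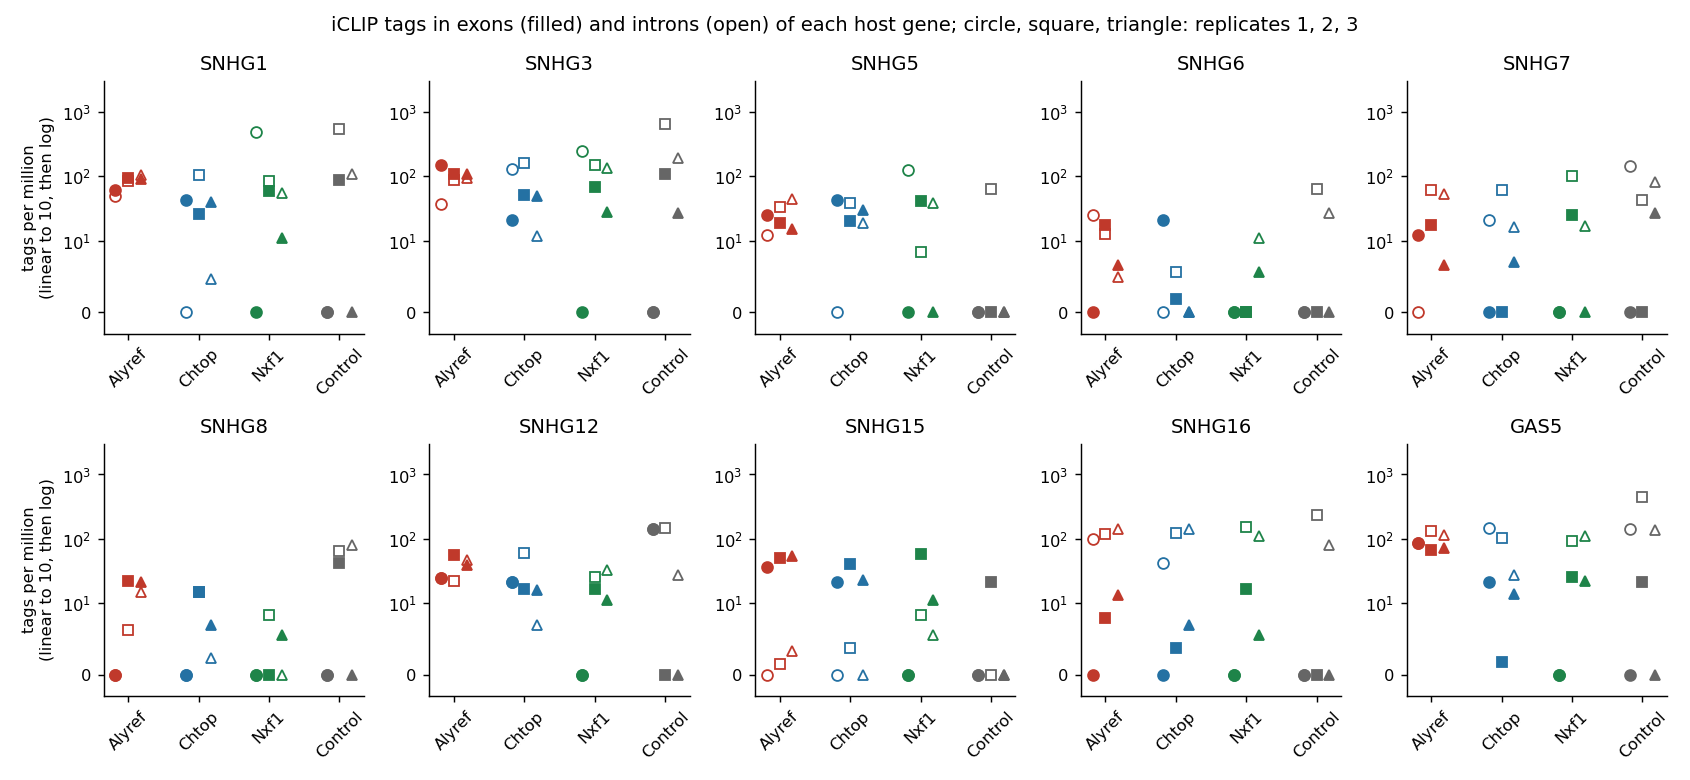
CPM (vertical axis, tags scaled to a common library total, linear to 10 and then logarithmic) in exons (filled) and introns with their snoRNAs (open) for each gene and group, with circle, square and triangle for replicates 1, 2 and 3. In GAS5, SNHG1 and SNHG3 the filled Alyref points lie above the filled Chtop points, and the Control 2 intron points stand high, as the 25 intron tags of SNHG1 there show.

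As a share of all their tags, exons took 46.8% ± 6.78 in Alyref (SD, n = 3), 33.6% ± 12.3 in Chtop, 16.4% ± 16.5 in Nxf1 and 14.3% ± 9.49 in the Control. The libraries gave 54.2, 45.1 and 41.0% in Alyref, 34.6, 20.8 and 45.4% in Chtop, 0, 33.0 and 16.2% in Nxf1 and 25.0, 11.02 and 6.90% in the Control. Alyref and Control libraries did not overlap, though Control 1 had only 4 tags, while Chtop and Nxf1 each overlapped with another group. Pooled, the shares were 43.5% of 1341 tags (interval 40.9 to 46.2), 28.1% of 670 (24.8 to 31.6), 23.9% of 230 (18.9 to 29.8) and 10.6% of 151 (6.63 to 16.5). The shares depend on the exon definition. With bases exonic in most isoforms they were 52.4% ± 6.31 in Alyref, 48.1% ± 21.8 in Chtop, 22.1% ± 21.9 in Nxf1 and 14.0% ± 9.65 in the Control. With the exons of all isoforms nearly the whole of most bodies is exon, and they were 89.8% ± 1.84, 85.6% ± 2.71, 82.7% ± 6.89 and 81.4% ± 7.49, so that the gap between Alyref and the Control was much smaller.

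Over all other genes together the order of Alyref and Chtop was the other way round. In the other lncRNA hosts the order of the means was that of the 10 genes, but the libraries overlapped in both sets. Exon shares in those hosts were 36.7, 37.9 and 33.8% in the Alyref libraries and 20.6, 22.9 and 38.8% in the Chtop libraries. In all other genes exons took 49.3% ± 4.08 of Alyref tags and 60.6% ± 8.15 of Chtop tags (SD, n = 3), with 39.8% ± 16.6 in Nxf1 and 25.5% ± 13.3 in the Control. In the 17 other lncRNA hosts of snoRNAs the Alyref share was 36.1% ± 2.07 and the Chtop share 27.4% ± 9.92, and in the 35 protein-coding hosts, mostly ribosomal protein and translation factor genes, they were 59.6% ± 4.77 and 63.3% ± 14.0, within their spread. In the 10 lncRNAs that host no snoRNA they were 67.9% ± 1.50 and 77.7% ± 1.12. Chtop 2 had a low exon share both in the 10 genes (20.8%) and in the protein-coding hosts (50.8%).

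Within SNHG3, the one member with enough tags in both regions, the exon against intron balance was tested with edgeR's exon usage test over 1144 regions. Its exon log2 difference was 1.37 for Alyref against the Control (adjusted p = 0.204) and its intron difference was -1.26 (adjusted p = 0.168). No member region passed, where 1.84% of all regions did for Alyref against the Control and 36.1% for Chtop against the Control. On simulated data this test recovered few of the changed regions, so the lack of a call says little about a shift.

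**Figure D3:**
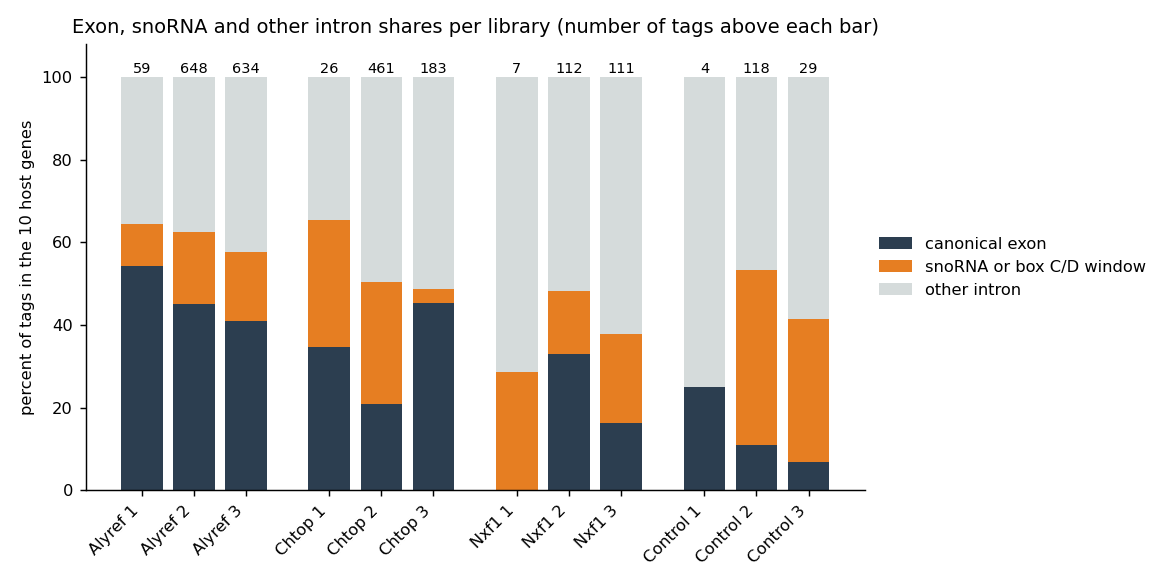
Percent of the tags in the 10 genes (vertical axis) that lay in canonical exons, in snoRNA sequence including box C/D windows and the SNORA73B copy, and in other intron, for each of the 12 libraries, with tag numbers above the bars. The exon part is 41.0% or more in every Alyref library and 25.0% or less in every Control library.

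Along the spliced hosts, a larger part of the Alyref than of the Chtop exon tags lay toward the 5′ end, though not in the first exon itself. Of 584 Alyref exon tags, 165 lay in first exons, 240 in middle exons and 179 in last exons, or 45.7, 54.2 and 13.6 tags per kb. Chtop had 53, 43 and 92 of 188, or 14.7, 9.71 and 7.01 tags per kb. The first exon took 34.4, 30.1 and 25.4% of the exon tags in the Alyref libraries and 22.2, 26.0 and 31.3% in the Chtop libraries, which overlapped. By position, 62.3% of Alyref exon tags and 43.6% of Chtop exon tags lay in the 5′-most of 3 equal parts of the spliced RNA, with 81.3, 59.9 and 62.7% in the Alyref libraries and 33.3, 43.8 and 44.6% in the Chtop libraries. SNHG12 had 0 of 62 Alyref exon tags in that part. Its canonical first exon (1397 nt) begins far upstream of the start base used above, and that part lies wholly upstream of this base. SNHG1 showed the clearest contrast. Alyref had 7 tags in its first exon, 72 in its middle exons and 41 in its last exon, whereas Chtop had 0, 1 and 32. The middle exons of SNHG1 are the short exons between its snoRNA introns. In SNHG3 Alyref had 24, 19 and 104 tags in first, middle and last exon, and Chtop 2, 2 and 46. In SNHG5 the order was different, with 10 of 23 Alyref and 23 of 26 Chtop exon tags in the first exon. These are sums over libraries and were not tested.

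The strongest single bases held few tags each and were not tested. After the first base of GAS5, the second Alyref base was chr1:28832556 in the first exon of SNHG3, 65 nt into the canonical transcript, with 8 tags (3 libraries) and 0 in every other group. Its neighbour chr1:28832557 had 4, a count that 4 bases shared. The strongest Chtop base, chr1:28835426 in the last exon of SNHG3, had 6 Chtop, 1 Alyref, 0 Nxf1 and 3 Control tags and stood before a T run. It lies near the 5′ end of that long exon, and so in the 5′-most of the 3 parts of the spliced RNA. The strongest SNHG3 bases of Alyref and of Chtop are shown with 10 nt on each side, the capital marking the base.
SNHG3 first exon, chr1:28832546-28832566: tttctctctcCtttttggaga
SNHG3 last exon, chr1:28835416-28835436: aggtaaactgAtttttttttt

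The next Chtop bases were chr17:74560538 in SNHG16 with 5 tags and chr1:173836062 in GAS5, 1 of 5 bases tied at 3 tags, which also had 3 Alyref, 1 Nxf1 and 2 Control tags. No base had more than 2 Nxf1 tags, and 9 bases tied there. In the Control, chr1:28835164 inside SNORA73B and chr1:28835426 had 3 tags each, the latter all in 1 library. At the crosslinked base U made up 55.1% of Alyref and 56.9% of Chtop exon tags and 51.3% and 51.7% of their intron tags, against 27.3% of exon and 27.7% of intron bases in the sequence itself. The Control had U at 48.1% of its 135 intron tags.

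**Figure D4:**
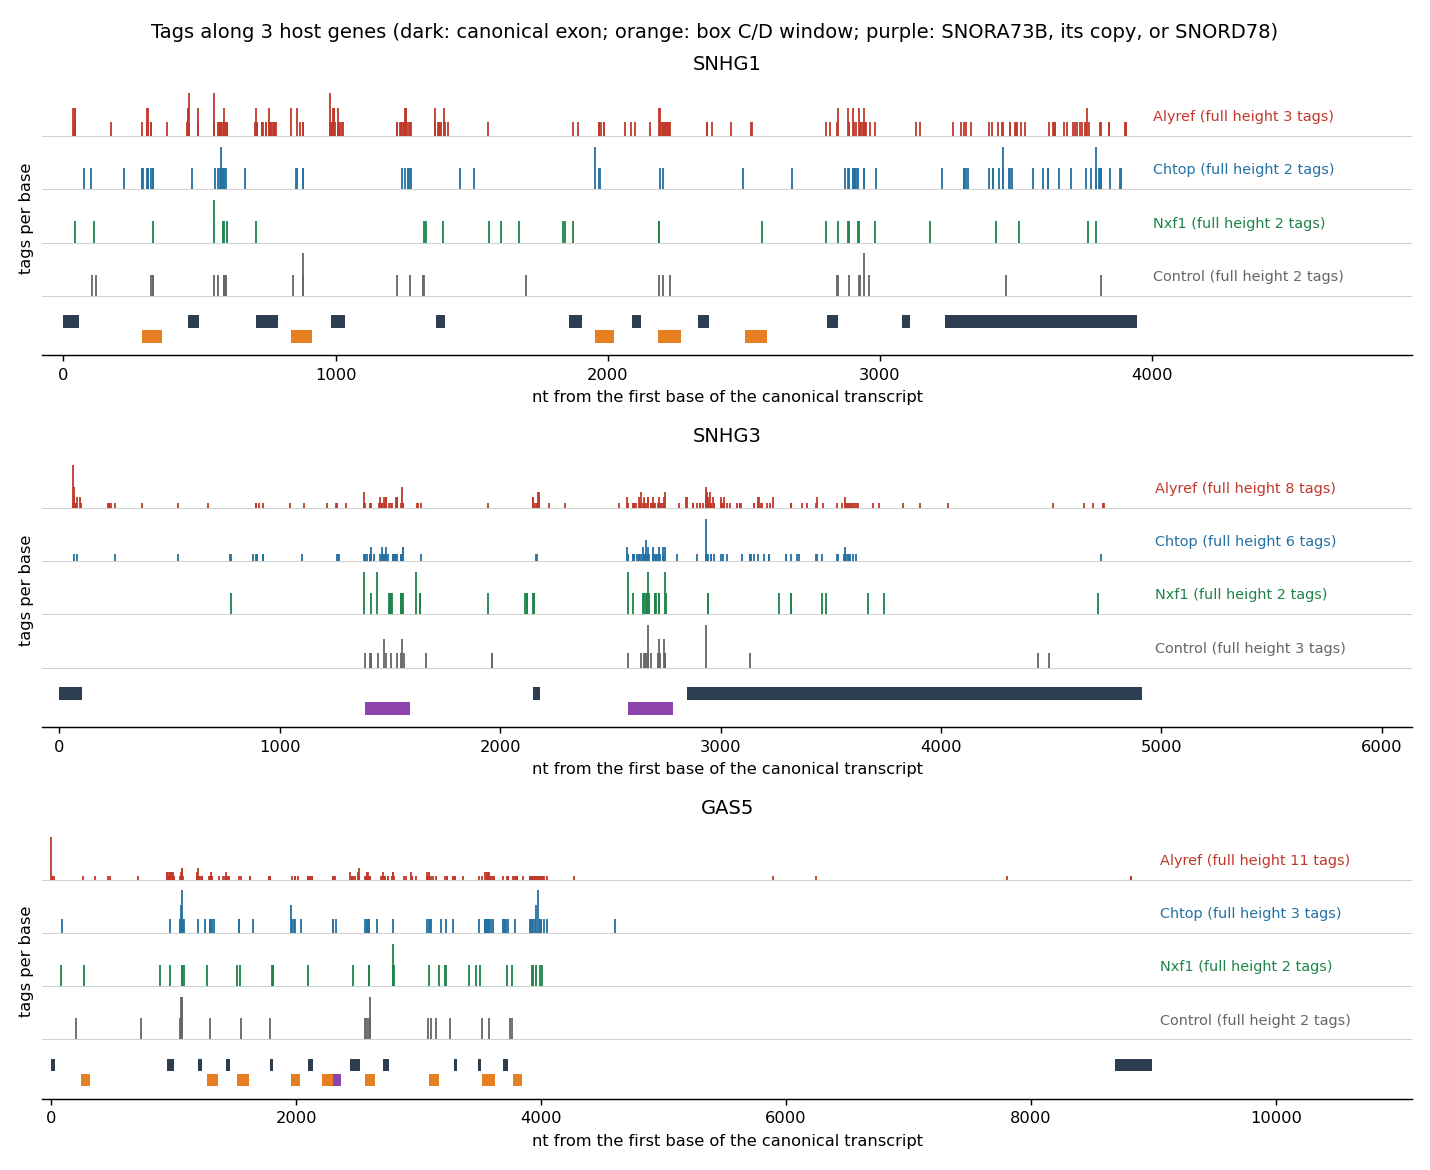
Tags per base along SNHG1, SNHG3 and GAS5 (horizontal axis, nt from the first base of the canonical transcript), summed over the 3 libraries of each group, above canonical exons (dark), box C/D windows (orange) and SNORA73B, its copy or SNORD78 (purple). In SNHG1 the middle exons hold 72 Alyref tags and 1 Chtop tag, and in SNHG3 all groups have tags in both purple blocks.

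Of the snoRNAs that the annotation places, SNORA73B alone had tags in every group. SNORA73B, a box H/ACA snoRNA that takes part in processing of the small subunit ribosomal RNA precursor, lies in the second intron of SNHG3. It held 122 tags, 1, 20 and 23 in Alyref, 1, 36 and 3 in Chtop, 0, 7 and 11 in Nxf1 and 0, 17 and 3 in the Control. Chtop 2 and Control 2 were high relative to the third library of their groups. A second sequence in the first intron, 92.3% identical to it over a global alignment, held 96 tags, 35 in Alyref, 36 in Chtop, 12 in Nxf1 and 13 in the Control. By library, its Chtop tags were 3, 32 and 1 and its Control tags 0, 10 and 3. RefSeq lists a second SNORA73 gene in the host, but the GRCh37 annotation used here places SNORA73B only. Reads were kept only where they mapped uniquely, so the split of tags between copies this similar is uncertain. Capitals mark bases with a tag in any library.
SNORA73B, chr1:28835071-28835274: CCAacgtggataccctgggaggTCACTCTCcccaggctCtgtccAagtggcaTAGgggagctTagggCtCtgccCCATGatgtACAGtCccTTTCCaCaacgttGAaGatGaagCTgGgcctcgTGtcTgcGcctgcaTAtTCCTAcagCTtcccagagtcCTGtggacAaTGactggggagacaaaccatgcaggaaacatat
Copy in the first intron, chr1:28833880-28834083: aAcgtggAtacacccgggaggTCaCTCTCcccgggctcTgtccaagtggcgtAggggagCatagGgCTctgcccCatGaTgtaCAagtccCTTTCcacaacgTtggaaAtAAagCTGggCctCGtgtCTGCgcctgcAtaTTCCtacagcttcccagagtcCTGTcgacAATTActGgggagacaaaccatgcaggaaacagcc

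The share of the members' tags in annotated intronic snoRNAs was 3.48% ± 1.54 in Alyref (SD, n = 3), 6.29% ± 4.13 in Chtop, 5.39% ± 5.01 in Nxf1 and 8.25% ± 7.43 in the Control, so that the groups overlapped. Only 4 of the 35 snoRNAs that RefSeq nests in these genes are placed by the GRCh37 annotation. Besides SNORA73B these are SNORD1B in SNHG16, SNORD99 in SNHG12 and SNORD78 in GAS5, with 12, 5 and 5 tags. Alyref had 9, 1 and 3 of these and Chtop 3, 4 and 2, and Nxf1 and the Control had 0. Box C/D snoRNAs were therefore also sought by their letters, a C box TGATGA and a D box CTGA on the RNA strand. The spacing was 30 to 110 nt, with 8 nt added on each side. Placed snoRNAs were not left out of this search. A window in SNHG16 holds SNORD1B with its 12 tags, and a window in GAS5 overlaps SNORD78. A match is a description and not an identified snoRNA.

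The 10 genes held 29 such windows in their introns, 0.173 per kb against 0.107 per kb in the introns of all other genes. Of these, 22 had a tag, and 13 windows in 5 genes held 225 of the 255 window tags. Of the 13, 9 lay in introns of 400 nt or less. The 5 windows with the most tags in SNHG1, SNHG5 and GAS5 are shown with their boxes in capitals.
SNHG1, chr11:62623034-62623105: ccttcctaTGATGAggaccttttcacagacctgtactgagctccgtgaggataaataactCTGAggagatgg
SNHG1, chr11:62621124-62621207: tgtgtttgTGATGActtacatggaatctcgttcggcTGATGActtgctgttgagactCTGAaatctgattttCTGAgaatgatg
SNHG5, chr6:86387007-86387088: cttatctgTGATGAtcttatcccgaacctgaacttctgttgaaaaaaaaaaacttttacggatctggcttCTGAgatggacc
GAS5, chr1:173833503-173833607: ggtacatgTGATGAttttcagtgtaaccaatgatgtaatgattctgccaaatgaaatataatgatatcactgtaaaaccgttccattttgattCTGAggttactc
GAS5, chr1:173834485-173834569: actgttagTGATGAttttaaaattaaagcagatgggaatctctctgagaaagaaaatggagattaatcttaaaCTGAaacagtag

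The first GAS5 window had 30 tags, 20 from Alyref, 9 from Chtop, 0 from Nxf1 and 1 from the Control. The second had 27, split 12, 7, 2 and 6 in the same order. The SNHG5 window had 25 (19, 4, 1 and 1), and the SNHG1 windows had 23 (10, 9, 1 and 3) and 22 (15, 2, 2 and 3). In the last of these, 9 of 22 tags lay in the 8 nt before the C box. All 9 Chtop tags of the GAS5 window with 30 tags came from Chtop 2.

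Box C/D windows took 19.2% of the members' 757 Alyref intron tags (interval 16.5 to 22.1), 14.5% of 482 Chtop intron tags (11.7 to 17.9), 7.43% of 175 Nxf1 intron tags (4.39 to 12.3) and 20.0% of 135 Control intron tags (14.1 to 27.5). In the introns of all other genes they took 0.970, 0.967, 0.800 and 1.03%. The windows were thus dense in tags in the Control as in the factor libraries. With these windows and the SNORA73B copy counted as snoRNA, a reading added after the data were seen, the snoRNA share was 14.8% ± 4.01 in Alyref (SD, n = 3), 21.2% ± 15.5 in Chtop, 21.8% ± 6.70 in Nxf1 and 25.6% ± 22.5 in the Control. The Chtop libraries had 8, 136 and 6 such tags (30.8, 29.5 and 3.28%). The Control libraries had 0, 50 and 10 (0, 42.4 and 34.5%).

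Gene by gene, the tag level scaled to library depth was lower in Chtop than in the Control in 3 hosts, and that call rests on Control 2. Tags per body were tested with edgeR's quasi-likelihood test over 3768 genes with Benjamini-Hochberg adjustment. Of the 10 hosts 5 passed the filter on low counts (SNHG1, SNHG3, SNHG7, SNHG16 and GAS5), and the filter favours genes that are high in some group. SNHG1 had 2, 71 and 19 tags in Chtop and 0, 29 and 4 in the Control, a log2 fold change of -2.02 (SE 0.50, adjusted p = 0.00784). GAS5 had 8, 57 and 18 against 1, 22 and 5 (-1.84, SE 0.50, adjusted p = 0.0128), and SNHG3 had 7, 114 and 26 against 0, 35 and 8 (-1.68, SE 0.46, adjusted p = 0.0142). In this comparison 5.02% of all genes were called lower and the median log2 fold change was 0.22, against -1.68 for the 5 hosts. Without Control 2, 0 hosts were called and the values were 0.0526 for SNHG1, -0.57 for GAS5 and -0.22 for SNHG3. SNHG3 was also lost without Chtop 3 (-1.27, adjusted p = 0.0660). With DESeq2, GAS5 had an adjusted p of 0.0579.

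Neither Alyref nor Nxf1 differed from the Control in any host tested, by edgeR at adjusted p below 0.05. For Alyref the values were -1.27 for SNHG3 (adjusted p = 0.158), -1.10 for SNHG1 (0.234) and -0.77 for GAS5 (0.417), where 0% of genes were called lower and 583 had an unadjusted p under 0.05. For Nxf1 they were -1.09, -1.45 and -1.14 in the same order (adjusted p = 0.678, 0.582 and 0.680), where 0% were called lower and 268 had an unadjusted p under 0.05. Without Control 2 all of these turned positive, to 0.22, 1.01 and 0.54 for Alyref and to 0.35, 0.60 and 0.13 for Nxf1. SNHG7 and SNHG16 lay between -0.97 and -0.05 in the comparisons with the Control and were not called.

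**Figure D5:**
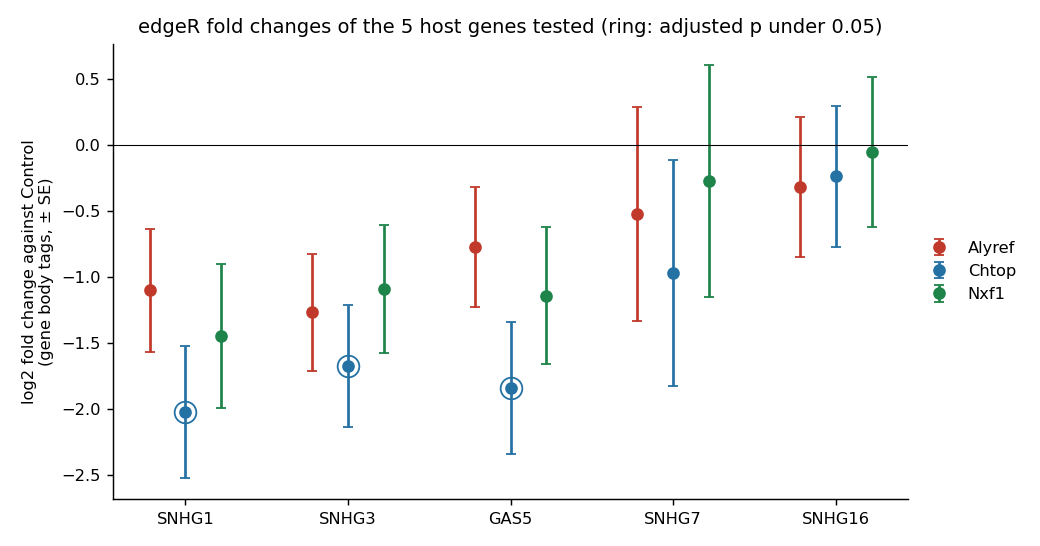
Log2 fold change of gene body tags against the Control (vertical axis, points with SE) for the 5 tested hosts and each factor, with rings where the adjusted p was below 0.05. All values are below 0, and the rings mark SNHG1 (-2.02), SNHG3 (-1.68) and GAS5 (-1.84) in Chtop.

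GAS5 had more tags in Alyref than in Chtop. Its counts were 14, 126 and 113 against 8, 57 and 18, or 172, 199 and 187 against 170, 106 and 41.9 in CPM, so that the Alyref libraries lay above the Chtop libraries but the first of each lay close together. The log2 fold change was 1.07 (SE 0.36, adjusted p = 0.0398), where 5.25% of genes were called higher in Alyref and the median was 0.00 over all genes and 0.45 over the 5 hosts. The call was lost without Alyref 2 (1.12, adjusted p = 0.182), Alyref 3 (1.07, 0.216) or Chtop 3 (0.68, 0.3003), and DESeq2 gave 0.88 (0.434). With the replicate number as a block it held (adjusted p = 0.0345), and SNHG1 was then also called (1.12, adjusted p = 0.0329) in place of 0.92 (0.0843). SNHG1 was also called without Alyref 1, Chtop 2 or Control 2, at 1.00, 1.81 and 0.95. SNHG3 was not called (0.41, adjusted p = 0.466).

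No host was called between Alyref and Nxf1, where 5.04% of genes were, or between Chtop and Nxf1, where 25.2% were. The Alyref against Nxf1 values lay between -0.26 for SNHG16 and 0.37 for GAS5. The Chtop against Nxf1 values lay between -0.70 and -0.18, and 2 hosts were called there without Chtop 2.

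With exons and introns as separate features, introns of 3 hosts were called lower than in the Control. Of 3157 features tested, 5 belonged to the hosts (introns of SNHG1, SNHG3, SNHG16 and GAS5 and exons of SNHG3), so that the exons of SNHG1, SNHG16 and GAS5 could not be called here. SNHG1 introns had 4, 54 and 62 Alyref tags, 0, 57 and 2 Chtop tags and 0, 25 and 4 Control tags. Their log2 fold change was -1.71 for Alyref against the Control (SE 0.52, adjusted p = 0.0285), where 1.24% of features were called lower, and -2.29 for Chtop (SE 0.55, adjusted p = 0.00056), where 10.6% were. With the replicate block the Alyref value was -1.35 (adjusted p = 0.130), and the call was lost. For Chtop, GAS5 introns (-1.67, adjusted p = 0.0115) and SNHG3 introns (-1.45, adjusted p = 0.0467) were also called, and the latter was lost with the block (-1.50, adjusted p = 0.0608). Exons of SNHG3 gave 0.89 for Alyref (adjusted p = 0.427) and -0.16 for Chtop (adjusted p = 0.871).

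Without Control 2 every one of these intron values turned positive, to 0.86 for SNHG1 in Alyref and to 0.24, 0.15 and 0.35 for SNHG1, GAS5 and SNHG3 in Chtop. The Alyref call of SNHG1 was also lost when any Alyref library, Chtop 1, Chtop 2, Nxf1 2 or Control 3 was left out, with values from -1.74 to -1.43. Without Chtop 3 none of the Chtop calls held, at -1.41 for SNHG1, -0.98 for GAS5 and -0.52 for SNHG3. The GAS5 intron call was also lost without Alyref 2, Alyref 3, Control 1 or Control 3 (-1.46 to -1.20), and the SNHG3 intron call held only when Chtop 2 or Nxf1 1 was left out. No host feature was called for Nxf1 against the Control, Alyref against Chtop, Alyref against Nxf1 or Chtop against Nxf1, where 0.253, 12.3, 10.6 and 46.4% of all features were.

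GAS5 exons did not pass the filter on low counts. With no filter, over 49627 features, they were higher in Alyref than in Chtop by 2.90 on the log2 scale (SE 0.68, adjusted p = 0.0464), where 0.0181% of features, 9 in all, were called higher. Canonical exons held 93 Alyref and 8 Chtop tags, against 114 and 24 over bases exonic in most isoforms. No unfiltered fit was made on those bases or with a library left out. The values that follow are also for canonical exons. Against the Control they gave 3.49 for Alyref (SE 1.18, adjusted p = 0.163), whose Control libraries held 1 exon tag in all.

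The related genes were read against the share called among all 3768 genes. Of 17 other lncRNA hosts, 5 were tested. SNHG4 was called lower in Chtop than in the Control (-2.01, adjusted p = 0.0309), 1 of 5 against 5.02% of all genes. SNHG4 (1.38) and ZFAS1 (1.46) were called higher in Alyref than in Chtop, 2 of 5 against 5.25%. Of 35 protein-coding hosts, 28 were tested. The ribosomal protein genes RPL23, RPS2, RPL13A and RPL7A, 4 of the 28, were called lower in Chtop than in the Control, with a list median of -0.87. RPL10 was called higher in Alyref than in Chtop (1.79, adjusted p = 0.0117), with a list median of 0.55. Against Nxf1, 7 of the 28 were called lower in Chtop, where 9.05% of all genes were, and 1, RPS2, lower in Alyref, where 1.78% were. Of 10 lncRNAs that host no snoRNA, 9 were tested. TUG1 (3.12) and NORAD (3.75) were called higher in Chtop than in the Control, where 9.82% of all genes were, and KCNQ1OT1 lower (-2.57), with a list median of -0.30. Against Alyref, TUG1 and NORAD were higher in Chtop, where 10.5% were, and KCNQ1OT1 lower. Against Nxf1, TUG1 was higher in Chtop, where 16.1% were, and SNHG4 lower. Alyref and Nxf1 against the Control gave 0 calls in these lists by edgeR. Of the 4 epithelial and kidney line genes 1 was tested and was called in no comparison, and of the 6 markers of other cell types 0 were tested.

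The 5 genes whose level over the 12 libraries was most like that of the summed hosts were FUBP1, FANCL, MSI2, FNDC3B and ACTN4. Their root mean square distances, in log2 CPM after centring, were 0.32, 0.35, 0.37, 0.39 and 0.39 among 3768 genes. The points share the libraries and their depths, so the likeness is a description.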

How the data were processed

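iCLIP tags of 12 libraries (FLAG-tagged Alyref, Chtop and Nxf1 and a FLAG-only Control, 3 each) were used. What the authors deposited are counts. Reads of phiX were taken out (Bowtie 1.1.2). The authors then extracted random barcodes (UMI-tools 0.5.3), demultiplexed with Reaper, aligned to hg19 (STAR 2.4.2a) keeping unique alignments, merged lanes, collapsed PCR duplicates and gave the number of tags at each crosslinked base, taken as a deletion or the base before the read. Unique alignment removes tags of repeated snoRNA copies. The pooled files matched their summed replicates with 0 positions different, and 0 per-sample columns were left unused.

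Tags were placed on GRCh37 with GENCODE release 44 mapped to that build. A later RefSeq annotation (GRCh38.p14) gave only the names of nested snoRNAs, and no coordinates of it were used. Tags on the gene strand were counted in 10 named hosts and in every other gene, as body, canonical exon, annotated intronic snoRNA and other intron, with small RNA genes and the mitochondrion left out as rows. Levels are CPM by the library's total of all tags. edgeR 4.0.16 in R 4.3.3 (quasi-likelihood F-test, TMM, filterByExpr, all 12 libraries in 1 fit, Benjamini-Hochberg over all rows, called at adjusted p under 0.05) tested body tags, region tags and, with diffSpliceDGE, region usage, and was tested on simulated data. In the simulated data the region usage test recovered few of the changed regions. SEs are the absolute log2 fold change over the square root of F. Shares have Wilson 95% intervals, which cover counting error only. DESeq2 1.42.0, other normalizations, filters, exon definitions, left-out libraries and a replicate block were alternatives. Python 3.11.15, pandas 2.3.3 and matplotlib 3.10.9 were used for counting and plots.

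All 10 hosts are named. Intronic snoRNAs with at least 20 tags are given with values and the others counted, and the 3 bases with most tags are named per group. Genes of other lists are named where called, and the 5 genes closest to the summed hosts in centred log2 level (prior count 2) were named. The members and lists were chosen with earlier results of these data known. Same-numbered libraries were sequenced on the same lanes in each group, so each lane set holds every group. Of 18 same-numbered pairs, correlations of deviations from group means ran from -0.17 to 0.21, and 6 exceeded 0.1. Differently numbered pairs of other groups ran from -0.25 to 0.22. Pairing by number was not tested further, and the replicate block was run as an alternative.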

Additional observations from a re-analysis of the deposited data

How the results depend on the processing

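A tally over the alternatives was made for SNHG1, SNHG3 and GAS5 only. It took body values of each factor against the Control and of Alyref against Chtop, and intron values of Alyref and Chtop against the Control. Of these, 271 kept direction and side of the threshold, 46 lost the threshold, 6 gained it and 14 changed sign. Of the sign changes 13 came from leaving out Control 2 and 1, SNHG3 in Alyref against Chtop (-0.0426), from leaving out Chtop 3. What made Control 2 differ was not tested.

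Hosts called lower in Chtop than in the Control numbered 3 by body and 3 by region. With no filter on low counts both fell to 0, and DESeq2 gave 0 and counting each base once 1 by region. For Alyref against the Control 1 region was called, against 0 with no filter, the replicate block, each base once, DESeq2 or exons of all isoforms, 3 with snoRNA windows widened by 5 nt and 2 with exons of most isoforms. For Alyref against Chtop 1 body was called, against 0 with no filter or DESeq2 and 2 with the block, and with no filter 1 region was called in place of 0. Leaving out 1 library at a time gave 0 to 3 bodies for Chtop against the Control, 0 to 2 for Alyref against Chtop and 0 to 2 for Chtop against Nxf1. By region it gave 0 to 2 for Alyref against the Control, 0 to 4 for Chtop against the Control, 0 to 1 for Alyref against Chtop and 0 to 1 for Chtop against Nxf1.

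Exon shares rested on the exon definition. With exons of all isoforms they were 89.8, 85.6, 82.7 and 81.4% in Alyref, Chtop, Nxf1 and Control, and with exons of most isoforms Chtop had 48.1%. The snoRNA share was 0.895% in Alyref and 0% in Nxf1 and Control with tags in more than 1 gene left out, 0.836, 0 and 0% without SNHG3, and 10.4% in Nxf1 with widened windows. With box C/D windows and the SNORA73B copy it was 14.8, 21.2, 21.8 and 25.6%. Leaving out 1 replicate, exon shares ran from 43.0 to 49.6% in Alyref, 27.7 to 40.0% in Chtop, 8.11 to 24.6% in Nxf1 and 8.96 to 18.0% in the Control, and snoRNA shares from 3.01 to 4.37%, 4.67 to 8.62%, 3.13 to 8.08% and 5.17 to 12.4%.

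The sign changes without Control 2 spanned these ranges when each library was left out. For bodies against the Control, SNHG1 ran from -1.36 to 1.01 in Alyref, -2.94 to 0.0526 in Chtop and -1.74 to 0.60 in Nxf1. SNHG3 ran from -1.44 to 0.22 in Alyref and -1.30 to 0.35 in Nxf1, and GAS5 from -0.94 to 0.54 and -1.50 to 0.13. SNHG3 in Alyref against Chtop ran from -0.0426 to 1.21. For introns, SNHG1 ran from -1.74 to 0.86 in Alyref and -5.27 to 0.24 in Chtop, GAS5 from -1.20 to 0.66 and -1.89 to 0.15, and SNHG3 from -1.70 to 0.13 and -2.42 to 0.35. The replicate block changed no other number of host calls by over 1.5 times. Depth limits every Control and Nxf1 value: the Control had 16 exon tags in the 10 genes and Nxf1 55.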
